A study of Mus musculus with 6 samples.

Results

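Plasma membrane amino acid transporters carry amino acids between the medium and the cytosol. The 10 transporter genes described here were chosen by symbol, and all 10 were among the 35976 symbols of the count table. They were measured by 3′ mRNA sequencing in RAW264.7, an established mouse macrophage-like cell line. In 3 libraries the cells were untreated (control), and in the other 3 they had been exposed to itaconate for 24 h. No dose, chemical form or vehicle of the itaconate is named in the labels. Separate cultures are not named either, so the p-values reflect only how far these 6 libraries spread, and that spread may be technical.

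Slc3a2 encodes the CD98 heavy chain, a glycoprotein that brings light chains of the Slc7 family to the cell surface, where the light chain does the transport. Slc7a5 is the light chain for large neutral amino acids such as leucine, and Slc7a7 is the one that exchanges cationic for neutral amino acids. Slc7a1 and Slc7a2 are cationic transporters that work without a heavy chain and supply arginine, a substrate that macrophages use for nitric oxide and polyamines. Slc1a5 and Slc1a4 exchange small neutral amino acids, Slc38a1 and Slc38a2 take up glutamine and other small neutral amino acids with sodium, and Slc6a9 takes up glycine. Several of these genes are known targets of ATF4, the transcription factor of the amino acid response.

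The libraries held 5202626 to 6098934 counts. All 10 macrophage markers found in the table were detected, at a summed 9848 to 11230 CPM (TMM-scaled counts relative to library size) in control and 7927 to 8159 CPM in itaconate libraries. Of these 10, 6 were called lower in itaconate and 1 higher by edgeR, beside 11.2% lower and 10.7% higher over all tested genes. Fibroblast markers summed to 0.668 to 1.62 CPM in control and 0.564 to 2.09 CPM in itaconate libraries, with Col3a1, Dcn and Lum (3 of 6) at 0. The T and NK cell list reached at most 0.93 and 0.939 CPM (Cd3e, Cd8a and Ncr1 at 0, 3 of 6), and the epithelial list 1.12 and 0 CPM (3 of 5 at 0, Krt18 among them). The macrophage marker sum was thus lower in every itaconate library. Its largest falls in mean CPM were in Csf1r (3683 to 1833) and Cd14 (1503 to 775), while Cd68 was the 1 called higher (1092 to 1342). The part of the marker sum in the results below was not tested.

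The comparison asked which transporter transcripts differ after itaconate exposure. The transcripts of 3 transporters were higher in itaconate-exposed cells: the glycine transporter gene Slc6a9 by 5.92-fold, the heavy chain gene Slc3a2 by 2.22-fold and the neutral amino acid exchanger gene Slc1a4 by 1.80-fold. The transcripts of Slc7a1, Slc7a5, Slc1a5, Slc38a1 and Slc38a2 did not pass the test, with log2 fold changes from -0.16 to 0.31. Slc7a2 and Slc7a7 had too few reads to be tested. Of the 8 tested genes, 3 were called higher and 0 lower by edgeR's quasi-likelihood test at an adjusted p under 0.05. In the same test 10.7% of 10636 genes were called higher and 11.2% lower. At an unadjusted p under 0.05, edgeR gave 4 higher and 0 lower, beside 1697 higher and 1727 lower of all 10636 tested genes. DESeq2 and limma-voom each called 3 members higher and 0 lower. Over all genes, DESeq2 called 1114 higher and 1135 lower, and limma-voom 1110 and 1163. The median log2 fold change of the 8 was 0.25, against -0.01 over all tested genes.

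**Figure D1:**
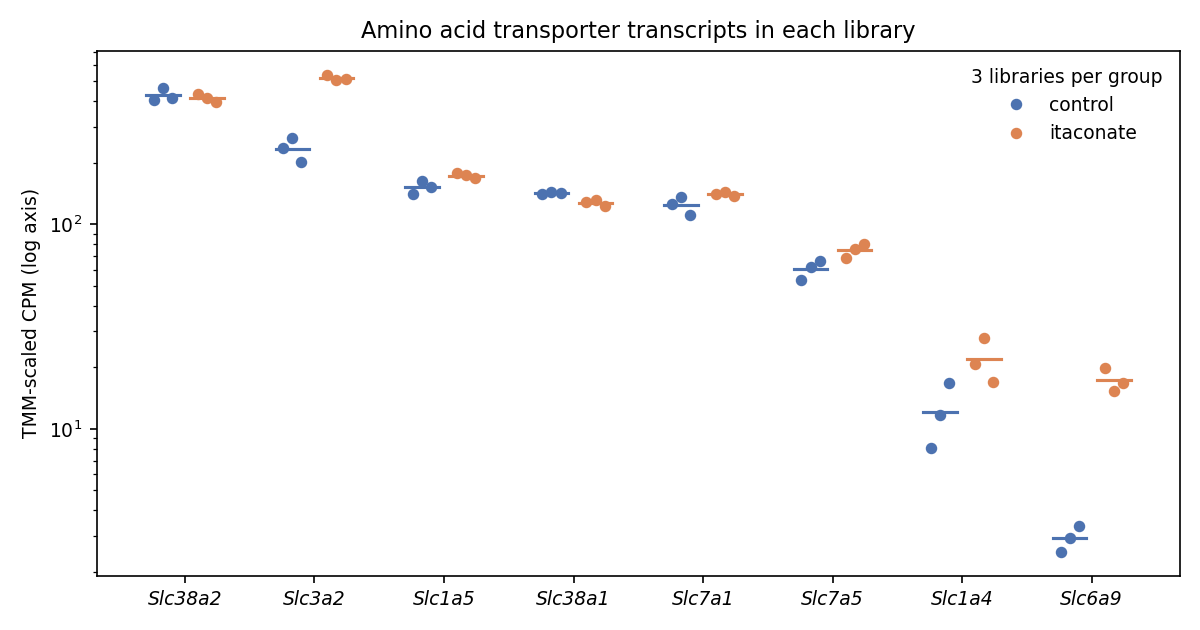
TMM-scaled CPM of the 8 tested transporter genes on a log axis, with 1 point per library, 3 control and 3 itaconate libraries per gene, and a line at each group mean. Genes are ordered by their control mean. The itaconate points of Slc3a2 and Slc6a9 lie well above the control points, while those of Slc38a2 overlap them.

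Slc3a2, on chromosome 19 (GRCm38, 8706882 to 8723369, minus strand), was measured at 236, 265 and 201 CPM in control replicates 1 to 3 and at 539.8, 506 and 515 CPM in itaconate replicates 1 to 3. Every itaconate library was above every control library, and the itaconate libraries lay closer together than the controls. The mean went from 234 ± 31.7 to 520.2 ± 17.6 CPM (SD, n = 3). The log2 fold change was 1.15 ± 0.09 (SE, 95% interval 0.97 to 1.33, edgeR adjusted p = 4.39e-15).

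The other genes of the heteromeric family are its light chains. Slc7a5, on chromosome 8 (121881150 to 121907694, minus strand), had 53.6, 61.7 and 65.8 CPM in control and 68.8, 75.5 and 80.1 CPM in itaconate libraries. The groups did not overlap, but the distance between the nearest libraries was small beside the spread within each group. Its log2 fold change of 0.31 ± 0.135 (SE, 95% interval 0.04 to 0.58) did not pass (edgeR adjusted p = 0.0983). Slc7a7, on chromosome 14, had 7, 2 and 4 counts in control and 3, 1 and 0 counts in itaconate libraries, near the floor of 3 counts per library (0.486 to 0.564 CPM). No difference in Slc7a7 was detectable at this depth. Some of its exons overlap Oxa1l on the other strand, which held 658 to 797 counts per library, and since the strand setting of the counting is not given, reads of that overlap cannot be told apart.

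Within a library, the light chain counts can be set against the heavy chain counts without any scaling. Slc7a5 counts were 22.7%, 23.3% and 32.7% of Slc3a2 counts in control libraries and 12.7%, 14.9% and 15.6% in itaconate libraries. All itaconate values were below all control values, and control replicate 3 stood above the other controls. The log2 ratio went from -1.95 ± 0.29 to -2.80 ± 0.15 (SD, n = 3), a difference of -0.85 (two-sided exact permutation test, p = 0.1, below which 3 libraries against 3 cannot go, and 0.2 adjusted over 4 ratios). Only the ratio fell: Slc7a5 itself had a log2 fold change of 0.31, which did not pass, and Slc3a2 had 1.15. The ratio of Slc7a11, the cystine and glutamate exchanger light chain, to Slc3a2 moved the other way. Its counts were 8.63%, 10.9% and 10.7% of Slc3a2 counts in control and 59.9%, 53.6% and 50% in itaconate libraries. The difference in the log2 ratio was 2.44 (exact two-sided permutation p = 0.1, adjusted p = 0.2). These are ratios of reads, not of proteins.

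**Figure D2:**
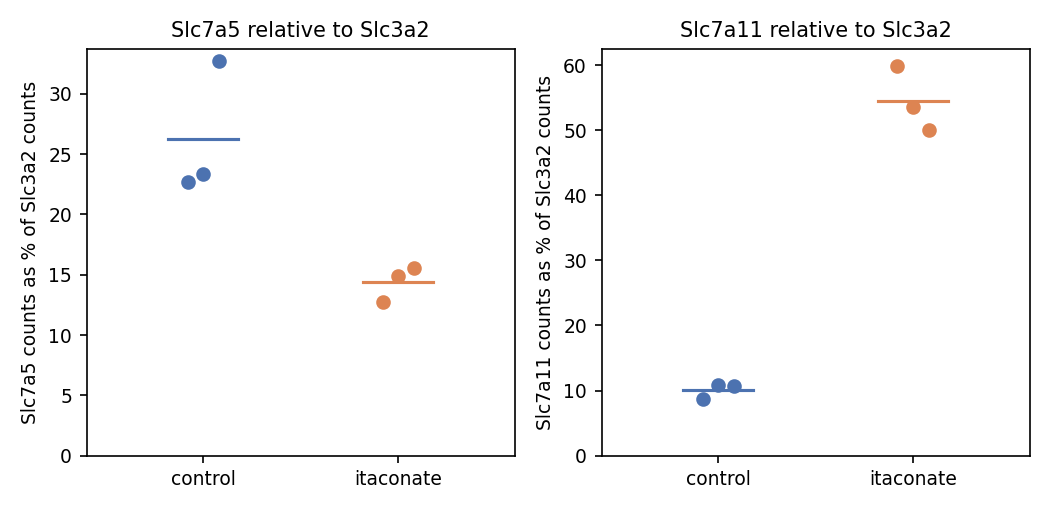
Counts of Slc7a5 (left) and Slc7a11 (right) as a percentage of Slc3a2 counts in the same library, with 1 point per library and a line at the group mean. Slc7a5 lies at 22.7% to 32.7% in control and 12.7% to 15.6% in itaconate libraries, and Slc7a11 at 8.63% to 10.9% and 50% to 59.9%.

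The 6 light chain genes that pair with Slc3a2 were also summed, a sum chosen after the values were seen. It came to 51.8%, 52.1% and 71.1% of Slc3a2 counts in control and to 82.8%, 79.5% and 75.6% in itaconate libraries. Slc7a11 made up 15.1% to 20.9% of these light chain counts in control and 66.2% to 72.3% in itaconate libraries, while Slc7a5 made up 43.9% to 46% and 15.4% to 20.6%. The sum held 732 to 852 counts in control and 2157 to 2379 counts in itaconate libraries, so the smaller Slc7a5 share is not a fall in Slc7a5 counts. By 3′ reads, the most counted light chain was Slc7a5 in each control library and Slc7a11 in each itaconate library. The other light chains did not pass: Slc7a6 had a log2 fold change of 0.29 ± 0.21 (SE) and Slc7a8 of -0.08 ± 0.23. Slc7a10 had 0 counts in all 6 libraries.

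Among the cationic transporters, Slc7a1, on chromosome 5 (148327410 to 148399904, minus strand), had 126, 137 and 111 CPM in control and 140.3, 144 and 137 CPM in itaconate libraries. The lowest itaconate library, at 137.3 CPM, lay just above the highest control, at 136.6 CPM. The log2 fold change was 0.17 ± 0.11 (SE, 95% interval -0.04 to 0.39, edgeR adjusted p = 0.259). Slc7a2, on chromosome 8 (40862396 to 40922308, plus strand), had 0 counts in every library. Zero counts allow up to 0.174 CPM over the control group and 0.179 CPM over the itaconate group, counting error only. Slc7a1 was thus the detected member of this pair in both groups.

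Slc1a4, which carries alanine, serine and cysteine, lies on chromosome 11 (20302180 to 20332713, minus strand). It had 8.01, 11.7 and 16.7 CPM in control and 20.7, 28.0 and 16.9 CPM in itaconate libraries. The groups barely failed to overlap, with 16.74 CPM in the highest control and 16.92 CPM in the lowest itaconate library. The means were 12.1 ± 4.38 and 21.9 ± 5.61 CPM (SD, n = 3), and the log2 fold change was 0.85 ± 0.27 (SE, 95% interval 0.31 to 1.39, edgeR adjusted p = 0.0164). The call was lost without control replicate 1 (edgeR adjusted p = 0.125), control replicate 2 (0.0559) or itaconate replicate 2 (0.174), within a range of 0.0051 to 0.174 over 13 alternatives.

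Its paralog Slc1a5, which also carries glutamine, lies on chromosome 7 (16781340 to 16798274, plus strand). It had 141, 163 and 153 CPM in control and 178, 175 and 168 CPM in itaconate libraries. All itaconate libraries were above all controls, by a margin smaller than the spread of the controls. The log2 fold change of 0.19 ± 0.10 (SE, 95% interval -0.01 to 0.38) did not pass (edgeR adjusted p = 0.185). The log2 ratio of Slc1a5 to Slc1a4 counts differed by -0.69 between the groups, with overlapping libraries (exact two-sided permutation p = 0.2, adjusted p = 0.267), so a difference in response between the paralogs was not established.

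The Slc38 transporters were the members with log2 fold changes below 0. Slc38a1, on chromosome 15 (96571418 to 96642913, minus strand), had 141, 143 and 142 CPM in control and 129, 131 and 122 CPM in itaconate libraries. Its libraries did not overlap, yet the log2 fold change of -0.16 ± 0.10 (SE, 95% interval -0.36 to 0.05) did not pass (edgeR adjusted p = 0.301). Slc38a2, the amino acid starvation-inducible member of the family, lies on the same chromosome (96687392 to 96699730, minus strand). It had 408, 464 and 417 CPM in control and 433, 416 and 396 CPM in itaconate libraries, and the groups overlapped. Its log2 fold change was -0.05 ± 0.08 (SE, 95% interval -0.22 to 0.12, edgeR adjusted p = 0.729), so the interval leaves out a change as large as that of Slc1a4 or Slc3a2. The log2 ratio of Slc38a2 to Slc38a1 differed by 0.11 between the groups (exact two-sided permutation p = 0.3, adjusted p = 0.3).

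Slc6a9, the glycine transporter GlyT1, lies on chromosome 4 (117834506 to 117875198, plus strand). It had 15, 18 and 18 counts in control libraries, or 2.50, 2.92 and 3.35 CPM. In itaconate libraries it had 106, 82 and 96 counts, or 19.9, 15.3 and 16.7 CPM. No itaconate library came near the controls. The means were 2.92 ± 0.422 and 17.3 ± 2.37 CPM (SD, n = 3), and the log2 fold change was 2.56 ± 0.35 (SE, 95% interval 1.85 to 3.27, edgeR adjusted p = 9.66e-08). By fold change Slc6a9 ranked 40 from the top of the 10636 tested genes, and Slc3a2 ranked 294. Exons of Slc6a9 overlap B4galt2, Ccdc24 and Gm17114 on the other strand. B4galt2 had 3 counts in control and 1 in itaconate libraries and Ccdc24 had 0, while Gm17114 was not among the symbols of the count table. Reads of the overlap cannot be told apart without the strand setting.

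Of the 8 tested transporters, 6 had all itaconate libraries above all control libraries, 1 (Slc38a1) had them all below and 1 (Slc38a2) overlapped. Over all tested genes, 17.7% were separated upwards and 17.9% downwards. For Slc7a5, Slc1a5 and Slc7a1 the separation thus went with log2 fold changes of 0.17 to 0.31 that did not pass. The last 500 bases of the coding transcripts of the tested members shared at most 2.63% of their 50-base stretches with other genes (Slc3a2), and 0% in the other 7. The shared Slc3a2 stretches occurred in 147 other genes, and their part in its counts was not tested.

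**Figure D3:**
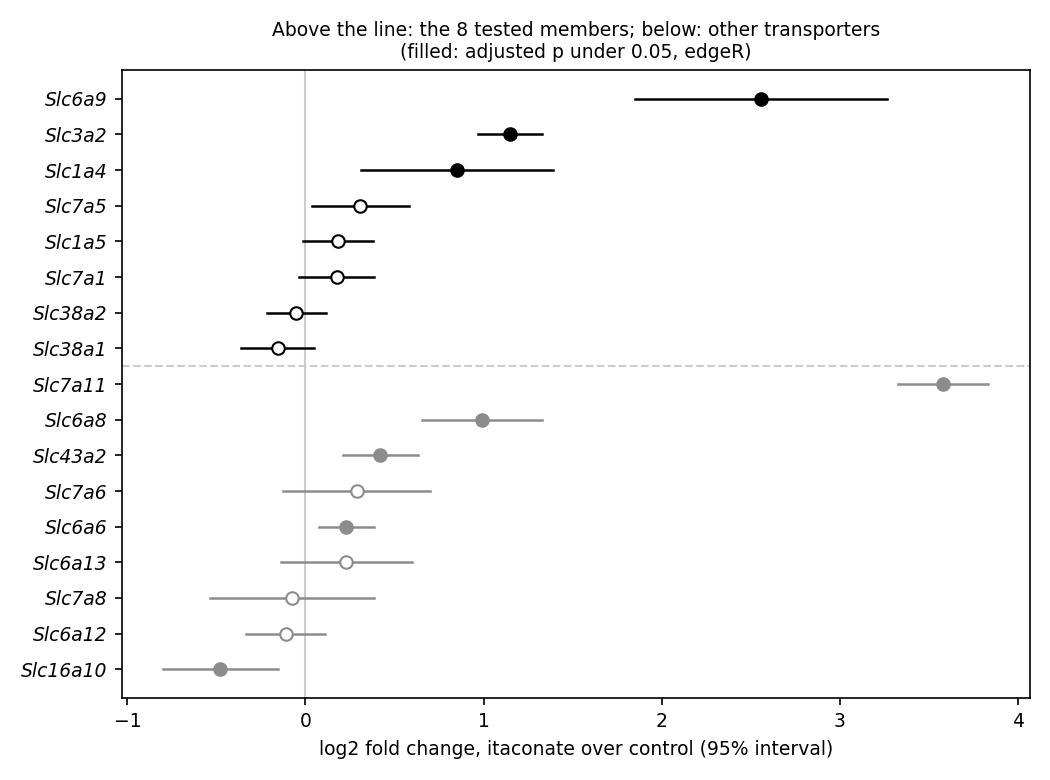
Log2 fold change of itaconate over control with its 95% interval for the 8 tested members (above the dashed line) and 9 other tested plasma membrane transporters (below it). Filled points passed at an edgeR adjusted p under 0.05. Slc6a9, Slc3a2 and Slc1a4 are the filled members, at 2.56, 1.15 and 0.85.

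Promoter sequence was examined because the members had moved by different amounts. RefSeq promoters (GRCm38.p6, 250 bases before to 50 bases after a start) were found for 6 of the 10 members, with 13 starts: Slc3a2, Slc7a1, Slc7a7, Slc1a4, Slc38a2 and Slc6a9. They were searched on both strands for the C/EBP-ATF composite TGATGNAAN, which ATF4 dimers can bind, and for the antioxidant response element core TGACNNNGC, which NRF2 dimers can bind. Of 32851 promoters in the table, 3.95% held the first motif and 12.4% the second. The composite was in 3 of the 13 member promoters, belonging to Slc1a4 and Slc7a7, and the antioxidant core in 4, belonging to Slc7a1, Slc38a2 and Slc6a9. The 2 Slc7a7 promoters overlap and share 1 composite site, so they are not separate cases beside the 3.95%. No member promoter held both, and Slc3a2 held neither in this window. The promoter of Slc7a11, which is not a member, held 2 composite matches and 0 antioxidant cores. The 60-base windows below show the Slc1a4 and Slc6a9 matches, genes that passed, beside those of Slc7a1 and Slc38a2, which did not, and of Slc7a11. Each window reads 5′ to 3′ on the gene's strand, with the matched letters in capitals.
Slc1a4, chr11:20332704-20332763, composite on the other strand: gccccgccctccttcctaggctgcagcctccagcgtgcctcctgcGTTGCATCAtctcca
Slc7a11, chr3:50443645-50443704, composite on both strands: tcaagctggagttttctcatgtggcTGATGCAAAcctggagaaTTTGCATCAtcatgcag
Slc6a9, the second start, chr4:117849279-117849338, antioxidant core: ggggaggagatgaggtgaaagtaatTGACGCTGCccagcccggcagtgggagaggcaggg
Slc6a9, the third start, chr4:117855477-117855536, antioxidant core: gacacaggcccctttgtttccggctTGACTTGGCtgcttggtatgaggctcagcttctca
Slc38a2, chr15:96699721-96699780, antioxidant core: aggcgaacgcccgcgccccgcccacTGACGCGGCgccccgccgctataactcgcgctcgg
Slc7a1, chr5:148399895-148399954, antioxidant core on the other strand: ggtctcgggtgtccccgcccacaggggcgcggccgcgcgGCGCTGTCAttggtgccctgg

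The Slc1a4 match begins 5 bases before the start site and runs across it, and the Slc7a11 matches begin 66 and 48 bases before it. In Slc6a9 the core begins 46 and 45 bases before the second and the third start. In Slc38a2 it begins 27 bases and in Slc7a1 11 bases before the start. A match to the antioxidant core was found for Slc6a9, which rose 5.92-fold, and for Slc7a1 and Slc38a2, which did not pass. The first Slc6a9 start and the second Slc7a1 start held no match. Any part of these motifs in the values was not tested. A match is a run of letters and shows no binding, and 3′ reads do not tell which start of Slc6a9 was used.

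Of 34 other plasma membrane transporters of amino acids and related compounds, 16 had a count and 9 were tested. Of these, 4 rose and 1 fell, beside 10.7% higher and 11.2% lower over all tested genes, with a median log2 fold change of 0.23. Slc7a11 had the largest rise of the 9, from 23.6 ± 4.58 to 283.9 ± 34.7 CPM (SD, n = 3), a log2 fold change of 3.58 ± 0.13 (SE). The creatine transporter gene Slc6a8 rose by 0.99 ± 0.17 and the neutral amino acid transporter gene Slc43a2 by 0.42 ± 0.10, and the taurine transporter gene Slc6a6 (chosen after its values were seen) rose by 0.23 ± 0.08 with overlapping libraries. The aromatic amino acid transporter gene Slc16a10 had a log2 fold change of -0.48 ± 0.16 (SE) and was called lower (edgeR adjusted p = 0.025). That call was lost without control replicates 2 or 3 or itaconate replicates 1 or 2, one at a time (edgeR adjusted p from 0.0537 to 0.142), and the call of Slc43a2 was lost without itaconate replicate 2 (0.0586). The call of Slc6a6 was lost with library totals (edgeR adjusted p = 0.0947) and on leaving out itaconate replicate 1 (0.106), itaconate replicate 2 (0.184) or control replicate 1 (0.205), so 2 genes of the list were called higher without itaconate replicate 2.

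The list of ATF4, its partners, targets such as Trib3 and the eIF2α kinases that act upstream had 8 of 15 tested genes higher and 1 lower. Like the other lists here, it was chosen with earlier results of these data known. Over all tested genes 10.7% were higher and 11.2% lower. The median of the list was 0.45. Atf4 itself rose by 0.45 ± 0.08 (SE), its target Trib3 by 1.57 ± 0.13, Atf5 by 1.33 ± 0.10 and Ddit3, or CHOP, by 1.08 ± 0.21. Among the kinase genes, Eif2ak4 rose by 0.59 ± 0.15, Eif2ak2 was the 1 called lower (-0.65 ± 0.19), and Eif2ak1 and Eif2ak3 were not called. The call of Eif2ak2 was lost without control replicate 3 or itaconate replicate 1. On the same scale Slc6a9 had 2.56, Slc3a2 1.15, Slc1a4 0.85, Slc7a5 0.31 and Slc38a2 -0.05. The members thus held values above and below that of the Atf4 transcript, and any part of ATF4 in them was not tested. Of the listed genes that make or use glycine, serine or glutathione, 5 of 11 tested rose and 1 fell (beside the same 10.7% and 11.2%). Their median was 0.75. The genes that rose include Gclm (4.04 ± 0.12), Gclc (1.63 ± 0.10) and Gss (1.59 ± 0.18), whose enzymes make glutathione, and Chac1 (0.89 ± 0.21), whose enzyme degrades it. The 1 lower call of this list, Shmt1 (-1.30 ± 0.36), was lost without control replicate 3.

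**Figure D4:**
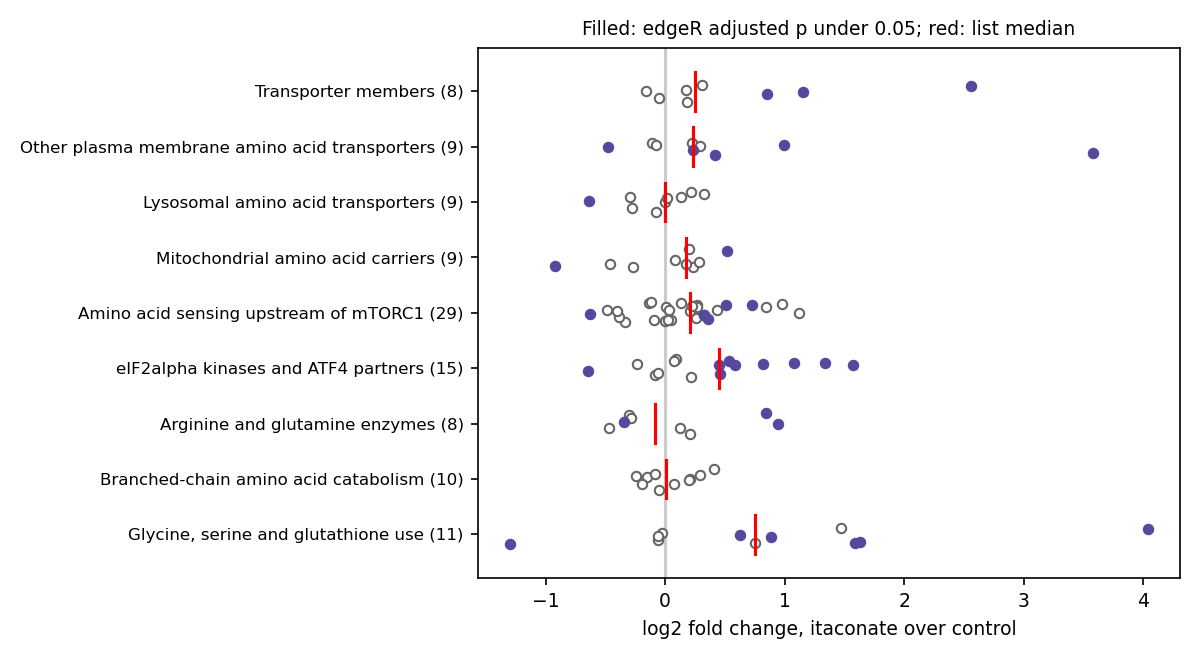
Log2 fold change of itaconate over control for the tested genes of 9 amino acid gene lists, with 1 point per gene (the number tested in parentheses), filled where the edgeR adjusted p was under 0.05, and a red line at each list's median. The medians run from -0.08 for arginine and glutamine enzymes to 0.75 for glycine, serine and glutathione use, and the transporter members have 0.25.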

How the data were processed

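The authors deposited whole-number read counts for each gene symbol, with no normalization. Per the labels' protocols, RNA came from a TRIzol extraction and libraries from Lexogen's QuantSeq FWD kit. STAR 2.7.5a, HTSeq 0.6.1, edgeR and the build mm10 are named in the submitters' processing notes. For annotation, trimming and strand the setting is not given in the sources used here. Count columns follow the 6 header names in order, and 0 columns belonged to another series.

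Genes were kept by filterByExpr (minimum count 10, minimum total 15), leaving 10636 genes with 99.74% of counts. Testing used edgeR 4.0.16 in R 4.3.3 (quasi-likelihood F, TMM, robust, group only, two-sided, Benjamini-Hochberg over all genes tested). The code was checked on independent counts simulated with the dispersions of this fit, which cannot tell whether the libraries themselves are independent. Calls required an adjusted p under 0.05. The SE is the absolute log2 fold change over the square root of F, and 95% intervals use its t distribution. CPM values are TMM-scaled, with SD over 3 libraries. Since the reads carry no stated molecular identifiers, copies of a molecule may be counted again, and floors cover counting error only. Ratios of gene pairs were tested by exact permutation, and pairs with Slc7a2 or Slc7a7, which had libraries at 0, were left out. Alternatives were DESeq2 1.42.0, limma-voom 3.58.1, library totals, DESeq2 size factors, no filter, a mean of at least 5 CPM, a replicate block and leaving out each library.

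A further marker list is not reported here. Members and gene lists were chosen with earlier results of these data known. Genes named are all members, all light chains of Slc3a2, up to 4 called genes with the smallest p per list, and the 3 genes most correlated with Slc3a2. Slc6a6, Shmt1, the eIF2α kinase genes, Csf1r, Cd14 and Cd68 were named after their values were seen. Gene positions and exon overlaps come from GENCODE M21 (GRCm38, which mm10 names), and promoters from RefSeq.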

Additional observations from a re-analysis of the deposited data

How the results depend on the processing

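Over 13 alternatives the transporters called higher numbered 2 or 3 and those called lower 0. Genes called over the whole table ran from 882 to 1147 higher and from 915 to 1429 lower. Genes called either way in the other lists together ran from 28 to 35, beside 31 in the main fit. Leaving out each library gave log2 fold changes of 1.05 to 1.25 for Slc3a2, 2.45 to 2.66 for Slc6a9 and 0.62 to 1.15 for Slc1a4, whose call was the one lost among the members, under the 3 omissions named with it. Over all alternatives Slc38a2, not called, ran from -0.10 to 0.01. With the replicate block, 3 transporters were higher and 0 lower, and 1087 genes were higher and 1160 lower overall. Same-numbered libraries deviated together at r = -0.01, 0.02 and 0.04 across genes, and differently numbered ones at -0.04 to 0.03. No pairing by number was thus seen, and the check cannot tell whether libraries shared a batch. Over the ratio alternatives (a prior count of 0.5 and each library left out), 2 or 3 of the 4 ratios had no overlap of libraries, and each difference kept its sign. Depth limits Slc7a2 and Slc7a7, which could not be compared, and widens the interval of Slc6a9.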

Other observations

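Genes that move, sense or break down amino acids inside the cell were read from 5 further lists. Where a list's share of calls is near that over all tested genes, it is no result about the list. Of 9 tested lysosomal amino acid transporters, 0 rose and 1 fell by edgeR, beside 10.7% and 11.2% over all tested genes (0 and 1 at an unadjusted p under 0.05, and with DESeq2 and limma-voom): Slc15a4, a histidine and peptide transporter, had a log2 fold change of -0.64 ± 0.11 (SE). Among mitochondrial carriers, 1 of 9 rose (beside 10.7%), the aspartate and glutamate carrier gene Slc25a12 (0.52 ± 0.12), and 1 fell (beside 11.2%), Sfxn2 (-0.92 ± 0.21). In amino acid sensing upstream of mTORC1, 4 of 29 rose and 1 fell, beside 10.7% and 11.2% over all tested genes. Rraga, a Rag GTPase gene, had 0.72 ± 0.13, the folliculin partner genes Fnip2 and Fnip1 had 0.51 ± 0.10 and 0.36 ± 0.10, and Sesn1, a leucine sensor family gene, had -0.63 ± 0.18. The call of Fnip1 was lost without control replicate 2 (edgeR adjusted p = 0.0503).

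Of 8 tested arginine and glutamine enzymes, 2 rose and 1 fell, beside 10.7% and 11.2% over all tested genes: the asparagine synthetase gene Asns at 0.95 ± 0.09 (SE), the argininosuccinate lyase gene Asl at 0.85 ± 0.21 and the glutamate dehydrogenase gene Glud1 at -0.35 ± 0.09. In branched-chain amino acid catabolism, 0 of 10 were called by edgeR, DESeq2 or limma-voom, beside the same 10.7% and 11.2% by edgeR. At an unadjusted p under 0.05, edgeR gave 1 higher, beside 1697 higher and 1727 lower of all 10636 tested genes. Leaving out 1 library moved some of these small counts: without itaconate replicate 3, 1 branched-chain gene and 2 carriers were called higher and 2 sensing genes and 2 arginine and glutamine enzymes lower. Without control replicate 3, 1 lysosomal transporter was called higher, and without control replicate 2 or itaconate replicate 2, 2 carriers were called lower.

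The 3 genes whose log2 CPM followed Slc3a2 most closely over the 6 libraries were Ampd3, an AMP deaminase gene (log2 fold change 2.14 ± 0.22, SE), Pla2g15, a lysosomal phospholipase gene (0.90 ± 0.13), and Sel1l, of ER-associated degradation (0.43 ± 0.09). All 3 were called higher in itaconate libraries, beside 10.7% of all tested genes. They were picked for following Slc3a2, which differs between the 2 groups of libraries, so these calls are no separate result. Pearson's r with Slc3a2 was 0.9999, 0.9991 and 0.9988 over these 6 libraries, a description with no test, and 336 of 9800 genes compared had an r over 0.95.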
